A study of Mus musculus with 6 samples.

Results

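Plaur, the receptor that holds urokinase on the cell surface, was read here in mouse pancreatic acini together with 3 genes of the same proteolytic system, Plau, Plat and Serpine2. These 4 genes of the 56953 in the table of counts were taken by name. They were selected on their function and on their measured levels and fold changes in all 3 comparisons, and the study itself had named Plaur from these libraries, so their values are given as a description and without a test. All 4 passed the filter on low counts, as did 14738 genes in all.

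Plasmin, the active protease of this system, is made when an activator cleaves plasminogen (Plg). Plau encodes urokinase (uPA) and Plat encodes tissue-type plasminogen activator (tPA). Plaur encodes uPAR, a receptor on a lipid anchor that concentrates urokinase at the cell surface and signals through integrins and growth factor receptors. Serpine2 encodes protease nexin-1, a serpin that traps both activators. In the pancreas the system is known for matrix turnover in inflammation and cancer, and Plaur is a textbook target of ERK and AP-1 signalling.

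The cultures were acini, the enzyme-secreting clusters of the exocrine pancreas, kept in Matrigel for 3 days in an ex vivo assay of acinar-to-ductal metaplasia (ADM), in which acini turn into duct-like structures. Wild-type acini (WT, 2 libraries, labelled 10 and 11 weeks old) and acini of mice with a ubiquitous knockout of Dkk3 (DD, 2 libraries, 12 and 13 weeks) were left untreated. DD acini given recombinant DKK3 (DD + rDKK3, 2 libraries, 14 and 15 weeks) received the secreted glycoprotein that the null mice lack. All 6 cultures had Waymouth medium with 10% serum, antibiotics, a trypsin inhibitor and dexamethasone at 10 µg per ml, a glucocorticoid that the WT controls therefore also received. Since the labelled ages rise with the groups, age and group cannot be told apart. WT 2 is labelled female and the other 5 libraries male, and sex was not in the model. The 2 libraries of each group differ in labelled age, and those of WT also in sex, though no label names an animal. With 2 libraries in a group, any p-value rests on the spread between these libraries only. That spread was pooled over the 3 groups and moderated towards that of all genes tested.

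Library totals ran from 12018473 to 19750401 counts. Dkk3 itself had 1 to 11 counts per library, under the filter, and 9 and 11 of them in the DD libraries. A count over the whole gene does not show which exons were transcribed, so it does not check the knockout. The 7 acinar markers summed to 22320 to 42700 CPM, the usual depth-normalised read count, here with totals scaled by the trimmed mean of M values (TMM). All 7 were detected, which fits the label of acinar cells. The 12 fibroblast and stellate cell markers, all detected, summed to 47.9 to 167 CPM in WT 1, WT 2, DD 1 and DD + rDKK3 1, but to 824 CPM in DD 2 and 927 CPM in DD + rDKK3 2. These 2 libraries stood apart, and results that move with them are given with that sum beside them. In RNA from whole cultures, fewer cells of a type and less RNA per cell cannot be told apart.

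Plaur (ENSMUSG00000046223.11, GRCm39 chromosome 7, 24161909 to 24175393, forward strand) is annotated with 7 exons and a canonical transcript of 1540 bases. The 250 bases before its RefSeq start (GRCm38.p6, chr7:24462233-24462482, forward strand) are shown because the gene is known to answer to AP-1 and ETS factors. Capitals mark AGGAAG, an ETS (PEA3) motif that begins 130 bases before the start, and TGACTCA, an AP-1 motif that begins 69 bases before it. The same stretch of Serpine2 (GRCm38.p6, chr1:79858666-79858915, reverse strand) is set beside it, with its single AGGAAG match, which begins 25 bases before the start, in capitals.
Plaur: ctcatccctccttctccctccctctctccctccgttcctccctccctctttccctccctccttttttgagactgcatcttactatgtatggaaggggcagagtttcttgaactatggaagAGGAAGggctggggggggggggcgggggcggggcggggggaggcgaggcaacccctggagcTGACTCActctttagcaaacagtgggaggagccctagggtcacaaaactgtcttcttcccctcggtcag
Serpine2: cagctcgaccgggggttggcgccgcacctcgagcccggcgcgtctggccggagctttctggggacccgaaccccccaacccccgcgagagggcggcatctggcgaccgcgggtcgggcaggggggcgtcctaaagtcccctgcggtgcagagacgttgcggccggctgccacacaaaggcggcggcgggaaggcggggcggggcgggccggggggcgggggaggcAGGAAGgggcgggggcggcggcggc

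The letters of 3 motifs were searched on both strands, TGANTCA for AP-1, AGGAAG for ETS factors and GGGCGG for Sp1. Of 32851 RefSeq windows of 250 bases, 6.75% held the AP-1 letters, 29.5% the ETS letters and 32.7% the Sp1 letters. The Plaur window held all 3 sets, and the Serpine2 window held the ETS and Sp1 letters but not the AP-1 letters. Among the 49 other genes of the plasminogen system listed for comparison, 34 had a window and 4 of those held the AP-1 letters (Serpinb2, Anxa2, Mmp3 and Mmp13). A match describes the letters in the window and is not a site shown to be bound.

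Plaur was high in both DD libraries and low in the other 4. Its level was 22.6 CPM in WT 1 and 25.9 CPM in WT 2. It was 42.8 CPM in DD 1 and 47.6 CPM in DD 2, and after rDKK3 it was 25.3 CPM and 27.0 CPM. The DD libraries did not overlap either of the other groups, while the DD + rDKK3 libraries lay around WT 2. Those values rest on 230 to 904 counts, with a counting error of 3.33% to 6.59%, and the exact 95% Poisson intervals, which cover counting error only, ran from 40.0 to 51.0 CPM over the DD libraries and from 19.8 to 29.4 CPM over the other 4.

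The mean of Plaur was 24.2 ± 2.3 CPM in WT (SD, n = 2), 45.2 ± 3.42 CPM in DD and 26.1 ± 1.16 CPM in DD + rDKK3. DD stood at 1.87 times WT, a log2 fold change of 0.90 (SE 0.15), and single DD libraries were 1.66 to 2.11 times single WT libraries. DD + rDKK3 stood at 0.578 times DD, a log2 fold change of -0.79 (SE 0.15). Against WT, the DD + rDKK3 mean was 1.08 times as high (log2 fold change 0.11, SE 0.15), which is within 1 SE of 0. The 3 comparisons share the DD, WT or treated libraries, each group entering 2 of them, so these differences are not independent of each other. Plaur also varied little within groups. Its SD within groups was 0.107 on the log2 scale, and that of the median gene was 0.223. That median is over genes of all levels, among which Plaur stood at percentile 69.8. Plaur was also chosen with its values known, so its small SD is a description only.

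Plaur in DD 2, where the fibroblast markers summed to 824 CPM, was close to Plaur in DD 1, where they summed to 71.0 CPM. In DD + rDKK3 2, at a fibroblast sum of 927 CPM, Plaur was as low as in DD + rDKK3 1 at 167 CPM. With both of these high libraries left out, which left 1 library each of DD and DD + rDKK3, Plaur had a log2 fold change of 0.82 for DD against WT and -0.75 in DD + rDKK3 against DD (an alternative chosen after seeing the data). Markers of neutrophils, which are known to carry uPAR on their surface, summed to under 1 CPM in every library, with 1 of 6 at 0 throughout. The 4 mesothelial markers summed to 8.55 and 8.43 CPM in WT and to 14.7 and 34.7 CPM in DD, mostly from Msln. In DD + rDKK3 they summed to 12.6 and 13.8 CPM, so both DD libraries lay above the others, as for Plaur. The 10 macrophage markers summed to 254 and 196 CPM in WT and to 144 and 345 CPM in DD. In DD + rDKK3 they summed to 158 and 258 CPM. Cd14 made up 121 and 137 CPM of the WT sums and was lower in DD, at 72.8 and 85.4 CPM. Of the 10 markers, 8 had positive and 2 negative log2 fold changes in DD against WT. The part of these cell types in the level of Plaur was not tested.

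**Figure D1:**
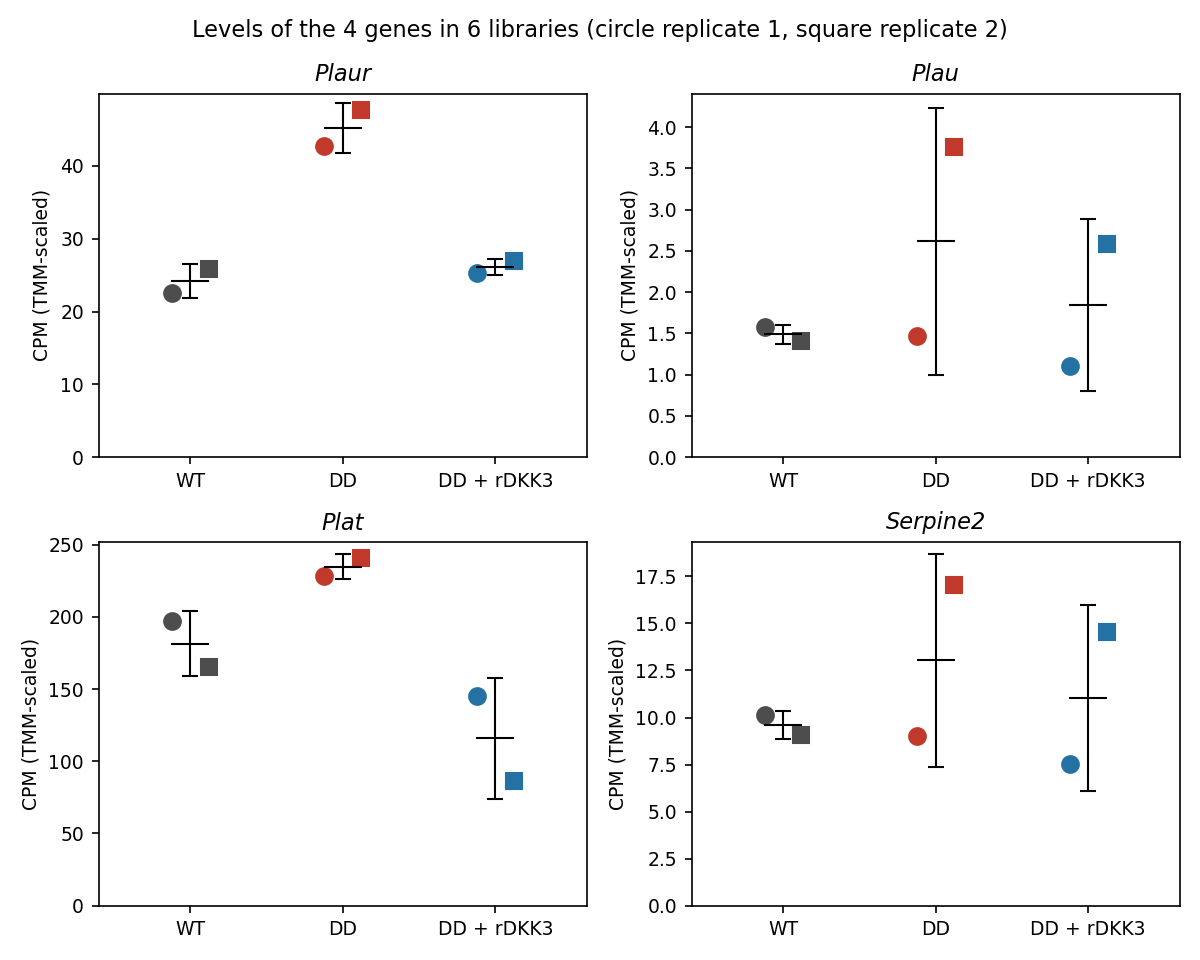
Levels of Plaur, Plau, Plat and Serpine2 in TMM-scaled CPM (linear axes from 0) in the 6 libraries; circles are replicate 1 and squares replicate 2 of a group, and black bars give the mean and SD (n = 2). Plaur lies at 42.8 and 47.6 CPM in DD and at 22.6 to 27.0 CPM elsewhere, whereas Plau and Serpine2 are high in the second DD library and the second DD + rDKK3 library.

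Plat (ENSMUSG00000031538.7, chromosome 8, 23247743 to 23272860, forward strand, 14 exons) was the most abundant of the 4 genes. It was at 197 CPM in WT 1 and 165 CPM in WT 2. It was at 229 CPM and 241 CPM in DD 1 and DD 2, and at 145 CPM and 86.4 CPM in DD + rDKK3 1 and 2. The 3 groups did not overlap: DD was highest and DD + rDKK3 lowest, below both WT libraries. The counts behind these values were 1606 to 4830, so the gap between the 2 treated libraries was far wider than their counting error of 1.91% and 2.5%.

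The mean of Plat was 181 ± 22.5 CPM in WT (SD, n = 2), 235 ± 8.73 CPM in DD and 116 ± 41.7 CPM in DD + rDKK3. DD exceeded WT by a log2 fold change of 0.37 (SE 0.25), and that of DD + rDKK3 against DD was -1.02 (SE 0.25), where the treated mean was 0.494 times the DD mean. The latter became -1.46 without DD + rDKK3 1, -0.70 without DD + rDKK3 2, and -0.65 without the second library of both Dkk3-null groups (chosen after seeing the data). In DD + rDKK3 against WT it was -0.65 (SE 0.25), which became -0.31 without DD + rDKK3 2 and -1.07 without DD + rDKK3 1. Plaur and Plat therefore shared the high DD libraries but differed in where the treated libraries fell, near WT for Plaur and below WT for Plat.

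Plau (ENSMUSG00000021822.4, chromosome 14, 20886728 to 20893453, forward strand, 11 exons) was scarce, with 16 to 64 counts per library. It was at 1.57 CPM and 1.41 CPM in WT, at 1.47 CPM in DD 1 and 3.76 CPM in DD 2, and at 1.11 CPM and 2.58 CPM in DD + rDKK3 1 and 2. The high libraries were DD 2 and DD + rDKK3 2, not a group, and all 3 groups overlapped. The mean was 1.49 ± 0.118 CPM in WT (SD, n = 2), 2.62 ± 1.62 CPM in DD and 1.85 ± 1.04 CPM in DD + rDKK3. On the log2 scale the fold change was 0.80 (SE 0.58) for DD against WT, -0.49 (SE 0.55) in DD + rDKK3 against DD and 0.31 (SE 0.58) in DD + rDKK3 against WT. Each was within 2 SE of 0. Without DD 2 the value of DD against WT became -0.01. The value after rDKK3 became 0.33 without DD 2, -0.03 without DD + rDKK3 1, -1.05 without DD 1 and -1.23 without DD + rDKK3 2, and without DD + rDKK3 2 the value of treated acini against WT became -0.41. Between libraries of the same number, treated over DD, the ratio was 0.756 for number 1 and 0.686 for number 2.

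Serpine2 (ENSMUSG00000026249.11, chromosome 1, 79771914 to 79838897, reverse strand, 9 exons) had the pattern of Plau at a higher level. It was at 10.1 CPM and 9.06 CPM in WT, at 9.04 CPM in DD 1 and 17.1 CPM in DD 2, and at 7.55 CPM and 14.5 CPM in DD + rDKK3 1 and 2. Again the 2 libraries with the high fibroblast sums were the high ones, and the groups overlapped. Its mean was 9.59 ± 0.748 CPM in WT (SD, n = 2), 13.0 ± 5.66 CPM in DD and 11.0 ± 4.93 CPM in DD + rDKK3. The log2 fold changes of 0.44 (SE 0.38), -0.24 (SE 0.38) and 0.20 (SE 0.38) in the 3 comparisons were each within 2 SE of 0. Without DD 2 the value of DD against WT became -0.08. The value after rDKK3 became 0.29 without DD 2, 0.14 without DD + rDKK3 1, -0.65 without DD 1 and -0.80 without DD + rDKK3 2, and the value of treated acini against WT became -0.34 without DD + rDKK3 2. Between libraries of the same number, treated over DD, the ratios were 0.836 and 0.852.

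**Figure D2:**
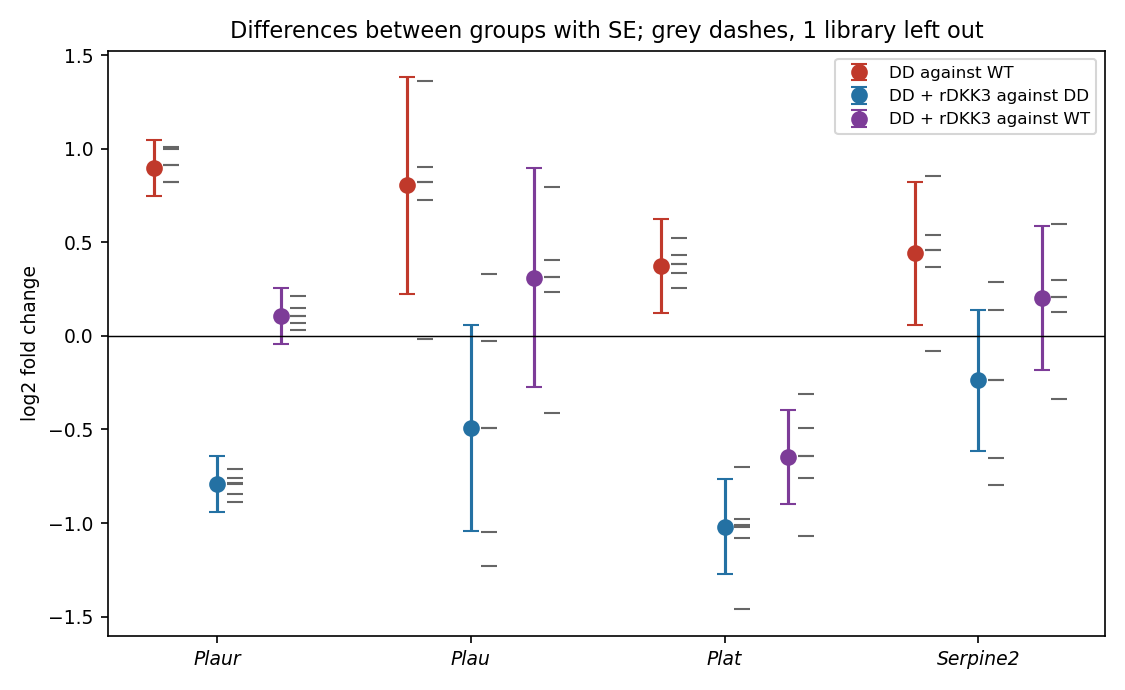
Log2 fold change of each gene in the 3 comparisons (points with SE from the edgeR fit over 6 libraries), with grey dashes for the same value when 1 library at a time is left out. The dashes for Plaur stay on one side of 0 in each comparison, while those for Plau and Serpine2 lie on both sides.

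With the edgeR quasi-likelihood test after the filter, none of the 4 genes was called at an adjusted p under 0.05 in any comparison. DESeq2 called Plaur in DD against WT, where it called 80 genes in all. Without a filter, edgeR called Plaur there among 528 genes, and both Plaur and Plat after rDKK3 among 73. Over all genes tested the filtered edgeR quasi-likelihood test called 0.0407% in DD against WT, 0% in DD + rDKK3 against DD and 0.0475% in DD + rDKK3 against WT. In DD + rDKK3 against DD, where 0 genes passed, 292 had an unadjusted p under 0.05, DESeq2 called 5 genes, and edgeR without a filter on low counts called 73. Both DD libraries lay above both WT libraries for 2 of the 4 genes, as they did for 18.1% of all genes tested. Both treated libraries lay below both DD libraries for 2 of 4, against 14.4% of all genes, and below both WT libraries for 1 of 4 (Plat), against 27.1%. For Plaur and Plat both DD libraries lay above all the other 4, which held for 4.03% of all genes. The 4 genes were chosen with these comparisons known, so nothing is read from those counts.

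Levels of different genes can be compared per length of transcript. Averaged over the 6 libraries, the levels were 68.5 CPM per kilobase for Plat, 20.7 for Plaur, 5.08 for Serpine2 and 0.845 for Plau. That order held in 6 of 6 libraries. Per length, Plat was 30.3 to 141 times Plau, so these cultures held far more transcript of the tissue-type activator than of urokinase. Plaur, the urokinase receptor, was 15.9 to 44.5 times urokinase.

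Across the 6 libraries Plau and Serpine2 moved together, while Plaur and Plat followed neither them nor each other as closely. Pearson's r of log2 CPM between Plau and Serpine2 was 0.992, the highest of the 6 pairs. Plaur had r of 0.552 with Plau, 0.561 with Plat and 0.457 with Serpine2, and Plat had r of 0.02 with Plau and -0.07 with Serpine2. Against the log2 fibroblast sum, r was 0.823 for Plau and 0.837 for Serpine2, but 0.265 for Plaur and -0.37 for Plat. These are descriptions over 6 libraries that share 1 scaling and 2 libraries of high fibroblast content. The part of other cell types in the levels of Plau and Serpine2 was not tested.

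**Figure D3:**
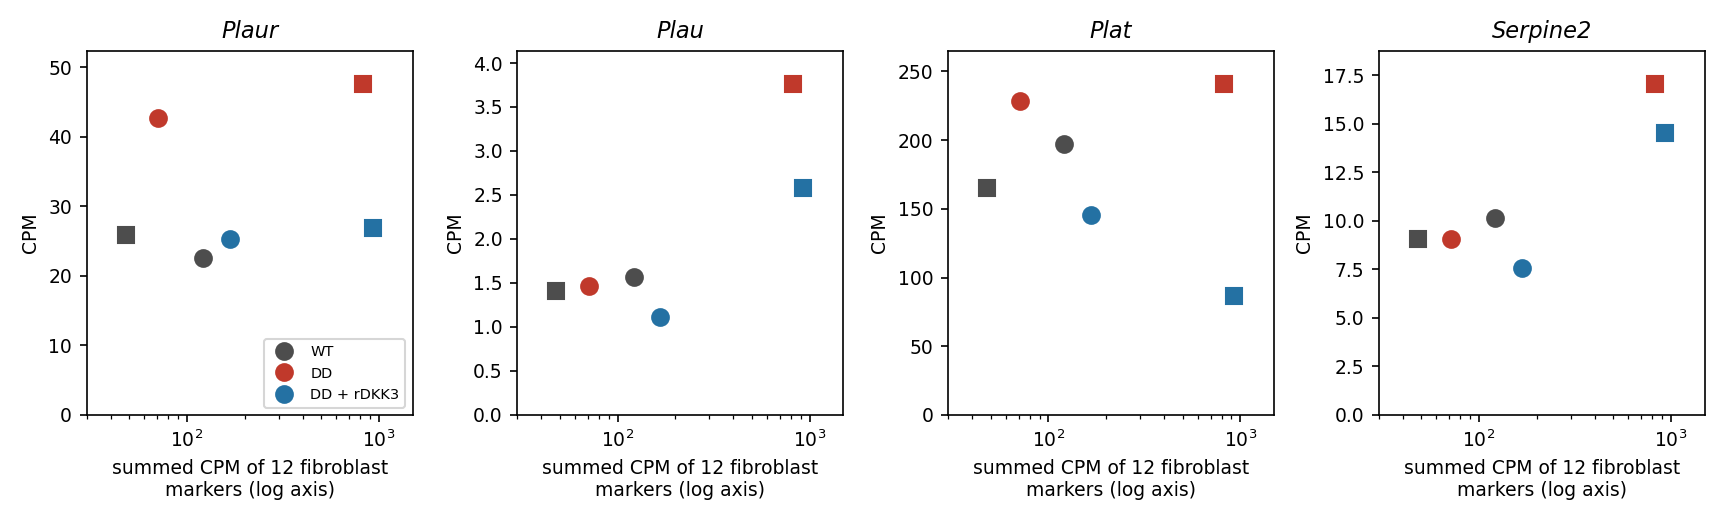
CPM of each of the 4 genes (linear axes from 0) against the summed CPM of 12 fibroblast and stellate cell markers (log axis) in the 6 libraries, coloured by group; circles are replicate 1 and squares replicate 2. Plau and Serpine2 are highest in the 2 libraries with sums of 824 and 927 CPM. Plaur is higher in DD 1 than in the other libraries at low sums. It is higher in DD 2 than in DD + rDKK3 2 at high sums, where no WT library lies.

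Named genes whose log2 CPM followed Plaur most closely, among 11865 genes with a mean log2 CPM above 1, were Gm50169 (a lncRNA, r = 0.997), Phlda1 (0.997), Tinagl1 (0.991), Gm28592 (a lncRNA, 0.986), Pls3 (0.976), Dusp9 (0.971) and Ybey (0.969). In all, 59 genes had an r above 0.9. These are 7 of the 8 genes of highest r. With Spearman's rank correlation the order of Plaur was matched in full by 15 genes, of which 1 was among the 8, and with scaling by library size alone 4 of the 8 remained. The genes were chosen for this pattern and their values are a description.

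Phlda1, known as a growth factor-responsive gene, was nearest to Plaur in level among the named genes. Its log2 fold changes were 1.01 in DD against WT, -0.85 in DD + rDKK3 against DD and 0.16 in DD + rDKK3 against WT. It was at 20.9 CPM and 25.2 CPM in WT, 44.5 CPM and 48.4 CPM in DD, and 25.7 CPM and 25.9 CPM in DD + rDKK3. The lncRNA Gm28592 lies on the other strand inside the Phlda1 locus and moved with it, at 10.8 to 14.6 CPM outside DD and at 24.0 CPM and 28.2 CPM in DD. Alignments were counted by strand per the study's methods, but any leak between strands would pass from one of this pair to the other.

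Tinagl1, a matrix protein, was at 78.3 CPM and 88.9 CPM in DD and at 50.6 to 54.1 CPM elsewhere. Dusp9, a MAP kinase phosphatase, was low, at 2.65 CPM and 2.88 CPM in DD and at 1.55 to 1.74 CPM elsewhere. The high values of all 7 genes lay in DD 1 and DD 2. Their log2 fold changes ran from 0.25 (Ybey) to 1.04 (Gm28592) in DD against WT and from -0.85 (Phlda1) to -0.22 (Ybey) in DD + rDKK3 against DD. A RefSeq window was found for Tinagl1 and Pls3, and the AP-1 letters were in that of Tinagl1.

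**Figure D4:**
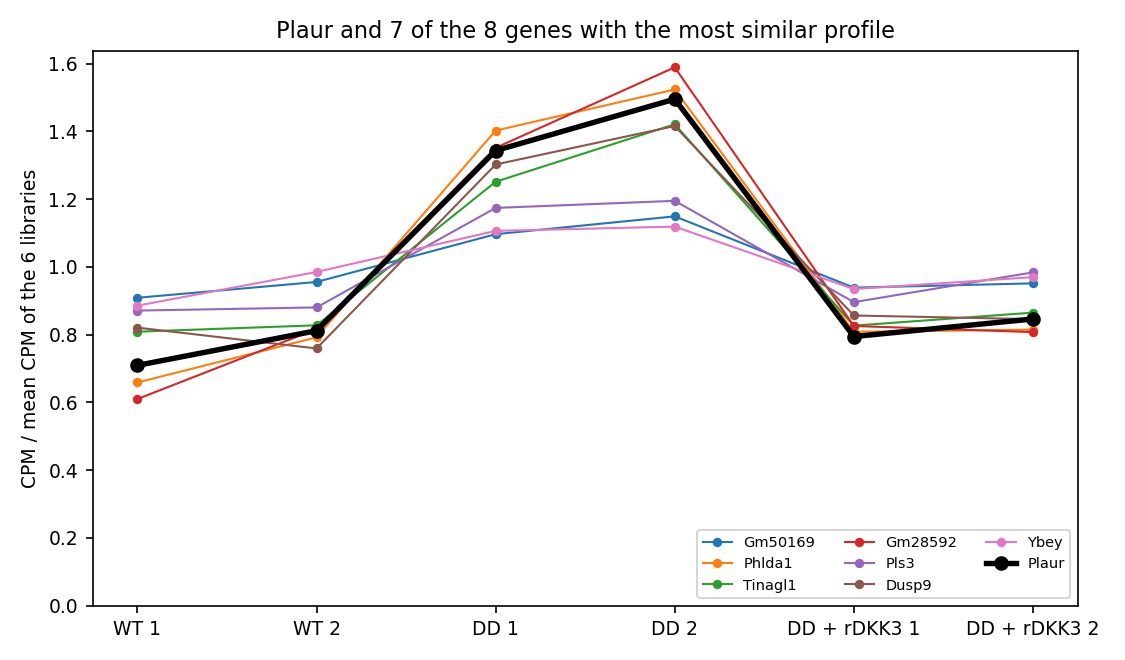
Plaur (black) and 7 of the 8 genes most like it, as CPM divided by each gene's own mean over the 6 libraries (linear axis from 0). Every line is highest in DD 1 and DD 2, and the lines differ in how far they rise, least for Ybey and Gm50169 and most for Phlda1, Gm28592 and Plaur.

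Plau was followed most closely by Serpine2 (r = 0.992), Sgcb (0.99) and Agpat4 (0.983), and Serpine2, after Plau, by Il1rap (0.986), Sgcb (0.983) and Racgap1 (0.977). Sgcb, a sarcoglycan of the membrane, was at 14.0 CPM in DD 2 and 9.25 CPM in DD + rDKK3 2, the libraries with fibroblast sums of 824 and 927 CPM, and at 4.6 to 7.07 CPM in the other 4. Plat was followed by Stn1 (0.992), Ivl (0.961) and Gm50397 (0.953). Ivl, involucrin, was at 14.9 CPM and 8.64 CPM in WT, 17.6 CPM and 13.9 CPM in DD, and 7.76 CPM and 4.36 CPM in DD + rDKK3, so its lowest value was in the same library as that of Plat.

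The other 49 genes of the plasminogen system gave no adjusted call in any comparison. The list holds the zymogen, inhibitors, proteases that activate pro-urokinase and their inhibitors, plasminogen receptors, partners of uPAR, clearance receptors and targets of plasmin. All 49 were in the table and 38 were tested. At an unadjusted p under 0.05, 4 were higher and 2 lower in DD than in WT, where 4.27% and 3.99% of all genes did. After rDKK3, against DD, 1 was higher and 2 were lower, where 0.597% and 1.38% of all genes were. Treated acini had 6 higher and 2 lower than WT, against 7.34% and 8% of all genes. The median log2 fold changes of the 38 were 0.32, -0.03 and 0.29, and those of all genes were 0.02, -0.003 and 0.02. Several of the 38 were highest in DD 2 and DD + rDKK3 2, as given below. The part of those libraries in the medians was not tested.

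**Figure D5:**
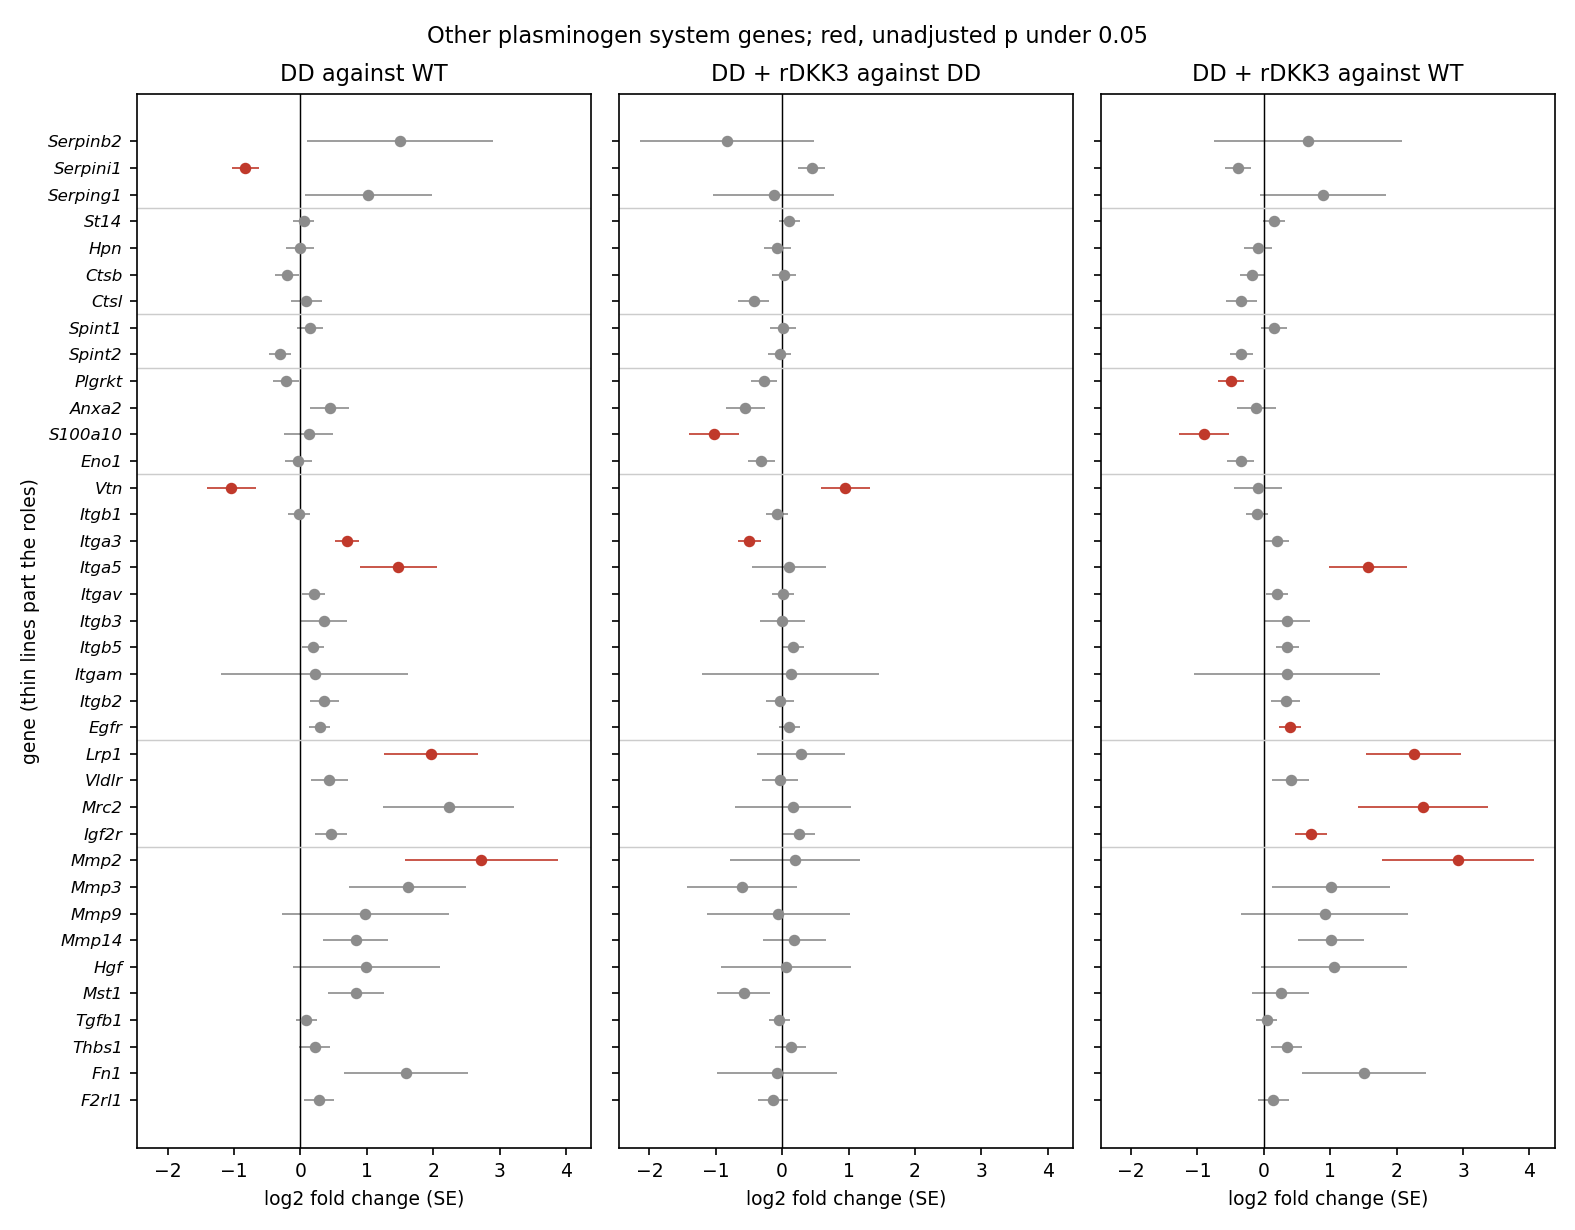
Log2 fold change with SE of 37 of the 38 other plasminogen system genes tested, in the 3 comparisons; thin lines part the roles, from inhibitors at the top to targets of plasmin at the bottom, and red points have an unadjusted p under 0.05. Errors are widest for genes such as Serpinb2 and Itgam, whose libraries differ within a group.

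Plg, the zymogen that both activators cleave, had 0 counts in all 6 libraries, so its transcript was not detectable at this depth. In the shallowest library a count of 0 allows up to 0.295 CPM (3 counts). Of the 8 other inhibitors listed, 4 were tested.

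Serpini1, neuroserpin, which inhibits tissue-type activator, had the lowest p of the list in DD against WT. It was at 44.8 CPM and 44.6 CPM in WT, 21.1 CPM and 29.2 CPM in DD, and 38.5 CPM and 29.8 CPM in DD + rDKK3. Both DD libraries were below the other 4, where those of Plat were above. Against WT, the log2 fold change of DD was -0.83 (SE 0.20, unadjusted p = 0.00381 in the edgeR quasi-likelihood test), and it was not a call after adjustment over all genes. Serpinb2 (PAI-2) swung between libraries, from 0.211 CPM in WT 2 to 11.4 CPM in DD 2, with values of 4.13 CPM in WT 1 and 0.473 CPM in DD 1, and no group stood apart.

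Of the 6 proteases that activate pro-urokinase, 4 were tested, St14 (matriptase), Hpn (hepsin), Ctsb and Ctsl (cathepsins). Their log2 fold changes lay between -0.20 and 0.09 in DD against WT. The range was -0.43 to 0.105 in DD + rDKK3 against DD and -0.34 to 0.15 in DD + rDKK3 against WT. None of them had an unadjusted p under 0.05 in any comparison. Neither did their inhibitors Spint1 and Spint2. The 4 plasminogen receptors all had negative log2 fold changes after rDKK3, from -1.03 to -0.27 against DD. S100a10, which with Anxa2 forms a plasminogen-binding complex, was at 116 CPM and 75.2 CPM in WT, 63.4 CPM and 145 CPM in DD, and 51.4 CPM and 50.7 CPM in DD + rDKK3. Its log2 fold change after rDKK3 was -1.03 (SE 0.37, unadjusted p = 0.0257 by the edgeR quasi-likelihood test), and both treated libraries were below the other 4.

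Among the partners of uPAR, Itga3, an integrin subunit known to associate with uPAR, had a profile like that of Plaur. It was at 121 CPM and 91.9 CPM in WT, 178 CPM and 166 CPM in DD, and 125 CPM and 120 CPM in DD + rDKK3. The DD libraries did not overlap the other 4. The DD to WT log2 fold change was 0.70 (SE 0.18, unadjusted p = 0.00516 by the edgeR quasi-likelihood test) and -0.49 (SE 0.18, unadjusted p = 0.026) after rDKK3. Vtn, vitronectin, the matrix ligand of uPAR, had the opposite order at a low level, with 4.72 CPM and 4.85 CPM in WT, 2.79 CPM and 1.82 CPM in DD, and 5.76 CPM and 3.23 CPM in DD + rDKK3. Its log2 fold changes were -1.04 (unadjusted p = 0.0239 by the edgeR quasi-likelihood test) and 0.95 (unadjusted p = 0.0326). The other integrin subunits tested, Itga5 apart, and Egfr stayed between -0.02 and 0.36 in log2 fold change in DD against WT.

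Lrp1, Mrc2, Mmp2 and Itga5 were high in DD 2 and DD + rDKK3 2. Lrp1, the receptor that clears activator-inhibitor complexes, was at 15.2 CPM and 15.4 CPM in WT, 24.8 CPM and 95.4 CPM in DD, and 33.7 CPM and 112 CPM in DD + rDKK3. The DD to WT log2 fold change was 1.97 (unadjusted p = 0.0246 by the edgeR quasi-likelihood test), with 2.25 (unadjusted p = 0.0138) in DD + rDKK3 against WT. Mmp2, a matrix metalloproteinase of mesenchymal cells, was at 31.9 CPM in DD 2 and 34.1 CPM in DD + rDKK3 2 and at 1.19 to 6.81 CPM in the other 4. All 10 targets of plasmin tested had positive log2 fold changes in DD against WT (median 0.90), but 1 of 10, Mmp2, had an unadjusted p under 0.05. Mmp2, Mmp3, Mmp9, Mmp14, Hgf and Fn1 had their highest values in DD 2 and DD + rDKK3 2. In DD 1 each of them lay within or below the WT values, Mmp3 for example at 1.89 CPM against 2.55 and 3.09 CPM. Others were highest in DD 1, among them F2rl1 (27.4 CPM) and Tgfb1 (43.6 CPM). The high values of Lrp1, Mrc2, Itga5, Mmp2, Mmp3, Mmp9, Mmp14, Hgf and Fn1 were in the libraries with fibroblast sums of 824 and 927 CPM. The part of fibroblasts in them was not tested. In DD + rDKK3 against WT the other listed genes with an unadjusted p under 0.05 in the edgeR quasi-likelihood test were Mmp2 (log2 fold change 2.92), Mrc2 (2.40), Itga5 (1.57), Igf2r (0.71) and Egfr (0.39) on the higher side, and S100a10 (-0.90) and the plasminogen receptor Plgrkt (-0.49) on the lower.

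The relatives of uPAR in the Ly6 family, small proteins of the same fold that mostly sit on lipid anchors, gave no adjusted call either. Of 17 listed, 14 were tested, and the median of their log2 fold changes came to -0.09 for DD against WT and -0.35 for DD + rDKK3 against DD. Psca (prostate stem cell antigen) had the lowest p. It was at 23.6 CPM and 11.8 CPM in WT, 49.6 CPM and 159 CPM in DD, and 37.5 CPM and 73.5 CPM in DD + rDKK3, a log2 fold change of 2.57 (SE 0.60, unadjusted p = 0.00307 by the edgeR quasi-likelihood test) in DD against WT. Its highest values were in DD 2 and DD + rDKK3 2, with fibroblast sums of 824 and 927 CPM, and the part of fibroblasts in them was not tested. Ly6d was at 111 CPM and 47.8 CPM in WT, 80.8 CPM and 174 CPM in DD, and 55.8 CPM and 43.7 CPM in DD + rDKK3. WT and DD overlapped, and the log2 fold change after rDKK3 was -1.35 (unadjusted p = 0.0185 by the edgeR quasi-likelihood test). Lypd1 was at 9.04 CPM and 6.39 CPM in WT, 9.75 CPM and 10.1 CPM in DD, and 6.97 CPM and 7.21 CPM in DD + rDKK3. Its log2 fold change after rDKK3 was -0.49 (unadjusted p = 0.0626 by the same test).

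Plaur and Dkk3 both lie on chromosome 7, 87.6 megabases apart. Within 250 kilobases of the start of Plaur the table held 36 other genes, of which 22 code for protein and 15 were tested. None was called in any comparison, and the median log2 fold change of the 15 was 0.03 in DD against WT and 0.18 in DD + rDKK3 against DD. In DD against WT they ran from -0.50 to 0.46, and none had an unadjusted p under 0.05. Of all genes tested, 4.27% were higher and 3.99% lower at that cut. Plaur, at 0.90, was chosen with its fold change known, so nothing is read from its place above them. After rDKK3 their values ran from -0.75 to 0.60 against DD. The single gene with an unadjusted p under 0.05 in DD + rDKK3 against WT was Irgq (log2 fold change 0.50, unadjusted p = 0.0284 by the edgeR quasi-likelihood test). In that comparison 7.34% of all genes were higher and 8% lower at that cut.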

How the data were processed

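Strand-specific paired-end RNA-seq was made from 6 acinar cultures in 3 groups of 2. Per the study's methods, the authors aligned the reads to GRCm39 with the basic GENCODE M32 annotation and counted alignments by strand over exons in union mode, then summed them per gene. The submitters' processing notes name STAR 2.7.9a, Picard 2.19.2, DESeq2 1.38.0 and R 4.2.2. The deposited values are raw counts per gene and library, with no normalisation by the authors. Such counts cannot show isoforms, and reads shared by near-identical genes may be lost. Of 57045 rows, 92 spike-in rows with 0 counts were left out, leaving 56953 genes, and totals were 12018473 to 19750401 counts.

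Low genes were dropped by filterByExpr (count of at least 10, total of at least 15), which kept 14738 genes. Counts were scaled by TMM and fitted over 6 libraries and 3 groups with the quasi-likelihood model of edgeR 4.0.16 in R 4.3.3. P-values are two-sided, and Benjamini-Hochberg adjustment ran over all 14738 genes with a threshold of 0.05. SE came from the same fit (3 residual degrees of freedom, and on average 4.63 more borrowed from the spread of all genes). The procedure was tested on simulated data. CPM per kilobase used canonical transcripts of the later GENCODE M39 on GRCm39, and promoter windows came from RefSeq on GRCm38.p6, with no conversion between builds. Poisson intervals and floors leave out all but counting error, as there were no molecular identifiers.

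The 4 genes, the gene lists and the rules were chosen with earlier results of these data known. Named besides the 4 were Plg and Serpinb2, listed genes with an unadjusted p under 0.05 (at most 8 a comparison), up to 3 Ly6 family genes and up to 3 neighbours of lowest p, the 8 genes most like Plaur and the 3 most like each other gene, Dkk3 and the marker sums. Sgcb, Ivl and the other genes given in full from those lists were picked after their values were seen. Some genes that these rules name are not reported here. Alternatives were DESeq2 1.42.0, scaling by library size, no filter, replicate blocks and leaving out libraries.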

Additional observations from a re-analysis of the deposited data

How the results depend on the processing

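Plaur kept its direction in DD against WT and in DD + rDKK3 against DD under every alternative run. Scaling by library size alone, which moved the median over all genes tested to 0.219 for DD against WT and 0.18 for DD + rDKK3 against WT, put Plaur at 1.1 and 0.265 in those comparisons. Leaving out 1 library at a time gave 0.82 to 1.01 in DD against WT, -0.889 to -0.711 in DD + rDKK3 against DD and 0.0341 to 0.215 in DD + rDKK3 against WT.

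Counts of genes called depended far more on the method. In DD against WT, 6 genes became 80 with DESeq2, 528 with no filter, 65 with a block within the Dkk3-null libraries, 14 without the second library of both Dkk3-null groups (chosen after seeing the data), and 2 to 6 with 1 library left out. In DD + rDKK3 against DD, 0 became 5 with DESeq2, 73 with no filter, and 0 throughout with 1 library left out. In DD + rDKK3 against WT, 7 became 74 with DESeq2, 788 with no filter, 77 with the block within the Dkk3-null libraries, and 2 to 9 with 1 library left out. DESeq2 called Plaur in DD against WT, edgeR without a filter called it there and after rDKK3, where it also called Plat, and no other alternative called any of the 4 genes.

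Other plasminogen system genes with an unadjusted p under 0.05 numbered 6 in DD against WT and became 10 with library size scaling and with the block within the Dkk3-null libraries, 16 with no filter and 4 to 14 with 1 library left out. The 3 after rDKK3 became 8 with no filter, 1 without the second Dkk3-null libraries and 0 to 7 with 1 library left out. The 8 in DD + rDKK3 against WT became 15 with no filter, 5 with the replicate block over all groups, 4 without the second Dkk3-null libraries and 0 to 9 with 1 library left out.

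The titles give same-numbered DD and DD + rDKK3 libraries a common name (DD1 or DD2), but no label names a shared animal, so the numbers were not taken as pairs. The correlation of their differences over 14738 genes was 0.65 between DD and DD + rDKK3, but -0.387 and -0.247 between WT and these groups. With the replicate block Plaur was at 0.90, -0.79 and 0.11 in the 3 comparisons, and with the block within the Dkk3-null libraries at 0.90, -0.79 and 0.11. In that block Plau was at 0.67, -0.48 and 0.19 and Serpine2 at 0.38, -0.25 and 0.13. Depth limits Plau most, at 16 to 64 counts.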
